A study of Homo sapiens with 6 samples.

Results

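The 10 genes described here encode proteins that report amino acid supply, or stress, to the kinase complex mTORC1: the sestrins SESN1, SESN2 and SESN3, DDIT4, CASTOR1, the Rag GTPases RRAGA, RRAGC and RRAGD, SLC38A9 and FLCN. They were chosen by gene symbol, and all 10 had a row among the 29571 genes of the table. Poly(A) RNA was sequenced from DB, a human cell line derived from diffuse large B-cell lymphoma. The labels name 3 libraries of DB_ZHX2 (ZHX2 cells here) and 3 of DB_ZHX2_Mut4 (Mut4 cells here), after ZHX2, a zinc finger and homeobox transcription factor. The labels do not state what Mut4 alters, how either form was introduced, whether the cells' own ZHX2 was kept, or whether a line is 1 clone. No other group is analysed here, so higher and lower are relative to the other cells only.

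mTORC1 drives protein and lipid synthesis when it sits on the lysosome, where it is brought by a Rag heterodimer of RagA or RagB with RagC or RagD, held by the Ragulator complex. GATOR1 switches RagA and RagB off, GATOR2 restrains GATOR1, and the sensors for leucine (SESN2, SESN1) and arginine (CASTOR1) hold GATOR2 back until their amino acid binds. SLC38A9 reads arginine inside the lysosome, FLCN with its FNIP partners acts on RagC and RagD, and DDIT4 (also called REDD1) works through a separate arm, the TSC complex that turns off RHEB. SESN2 and DDIT4 are known as genes induced by the stress factor ATF4.

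The table holds levels as FPKM, fragments per kilobase of transcript scaled to the fragments mapped, without counts, so depth is unknown and no counting interval can be given. Within a group the 3 columns were 1 profile multiplied by constants, in 23808 of 23808 genes above 0 in Mut4 cells and in 23368 of 23370 in ZHX2 cells. All 10 genes followed the constants: columns 2 and 3 were 1.05 and 1.21 times column 1 in Mut4 cells, and 1.33 and 0.897 times column 1 in ZHX2 cells (tolerance 1e-06). With n = 1 a group on that account, the differences given here were not checked against replicates and carry no p-value computed here. The spread of a gene's 3 values shows the constants, not biological or technical variation. All 7 B cell markers passed the filter, among them MS4A1 (Mut4 146.3 FPKM, ZHX2 147.3 FPKM) and CD79B (Mut4 249.2 FPKM, ZHX2 194.9 FPKM). Of 4 T cell markers with a row 0 passed the filter (CD8A reached 1.10 FPKM in ZHX2 column 2), and their summed level was 0.854 to 1.03 FPKM over the Mut4 columns and 0.898 to 1.33 FPKM over the ZHX2 columns. Of 4 myeloid markers with a row 1 passed, LYZ (Mut4 2.97 FPKM, ZHX2 3.55 FPKM). Of 1 erythroid and 2 fibroblast markers with a row 0 passed.

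Promoter sequences are shown for SESN2 and DDIT4, the pair that differed most between the cells, and for RRAGC, which held the single E-box found. They are RefSeq sequences on GRCh38.p14, 5′ to 3′ on the gene's strand, and end at the RefSeq start or before the gene's first exon in GENCODE v29. Capitals mark CCAAT or its reverse complement ATTGG, the box bound by NF-Y, and in RRAGC also CACGTG, the E-box.
SESN2, chr1:28259268-28259517, plus strand: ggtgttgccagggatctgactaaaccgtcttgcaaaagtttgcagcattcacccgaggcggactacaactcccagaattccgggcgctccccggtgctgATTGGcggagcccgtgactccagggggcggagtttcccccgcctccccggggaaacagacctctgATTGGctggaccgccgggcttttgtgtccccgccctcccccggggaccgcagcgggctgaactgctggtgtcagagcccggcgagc
DDIT4, chr10:72273674-72273919, plus strand: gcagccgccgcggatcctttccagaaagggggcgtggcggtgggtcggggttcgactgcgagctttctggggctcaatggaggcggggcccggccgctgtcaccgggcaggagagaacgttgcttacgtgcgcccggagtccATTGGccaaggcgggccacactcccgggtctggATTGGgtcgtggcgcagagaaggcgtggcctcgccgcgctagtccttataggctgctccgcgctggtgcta
RRAGC, chr1:38859824-38860022, minus strand: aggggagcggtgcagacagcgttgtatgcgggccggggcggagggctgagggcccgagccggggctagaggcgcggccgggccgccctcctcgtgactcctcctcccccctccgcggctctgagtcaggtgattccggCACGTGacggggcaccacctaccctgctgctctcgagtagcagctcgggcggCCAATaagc

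The SESN2 and DDIT4 promoters each held ATTGG at 2 places, beginning 151 and 86 bases before the start in SESN2 and 108 and 75 bases before it in DDIT4. The box in either direction occurred in 34.6% of all 35116 RefSeq promoter windows, and at least 2 occurred in 10.8%. RRAGC had the E-box 112 bases and CCAAT 60 bases before its RefSeq start, and the E-box was in 7.26% of all windows. All these positions count from the RefSeq start, which lies beyond the end of the DDIT4 and RRAGC sequences shown. For 8 of the 10 genes 12 windows were found, each running from 250 bases before a start to 50 after it. Of these, 6 held CCAAT in either direction: those of SESN2, DDIT4, RRAGC and CASTOR1, and windows 2 and 3 of SESN1. SESN1 had a log2 ratio of −0.14 between the cells, so the box was not limited to the pair that differed most. No RefSeq window for RRAGA and RRAGD was in the table used. Searched on both strands, TGATGNAAN (the core of the C/EBP-ATF response element, in 3.61% of all windows), TCACGTGA (the CLEAR core of MiT/TFE targets, which contains the E-box, in 0.980%) and GTAAACA (forkhead, in 3.42%) were in 0 of the 12. That says only that these letters are not in these windows; elements further away were not searched.

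Across the sensing genes, the leucine sensor gene SESN2 and the stress gene DDIT4 were about 2-fold lower in Mut4 cells, and the other 7 genes that were compared differed by less than 1.5-fold. Ratios are log2(FPKM + 1) of Mut4 minus that of ZHX2 cells, taken on the means of the columns, which understates the ratio of low genes. In bulk RNA, fewer cells of a kind and less RNA per cell cannot be told apart. Genes reaching 1 FPKM in 3 or more of the 6 columns were compared, and 9 of the 10 did so, each in 6 of 6 columns. Only CASTOR1 did not. Of the 9, 2 were lower in Mut4 cells by 1.5-fold or more and 0 were higher, where 2.56% of all 12643 genes compared were that much lower and 2.54% higher (5.1% in either direction). The split among all genes moved with the constants: 324 lower and 321 higher became 202 and 720 when ZHX2 column 2 was left out and the median of all genes moved from 0.02 to 0.17. The count of 2 among the sensing genes was the same there. The median log2 ratio of the 9 was −0.20, against 0.02 for all genes. These genes were picked with earlier results of the same table known, so their share is not set against the background as a finding.

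**Figure D1:**
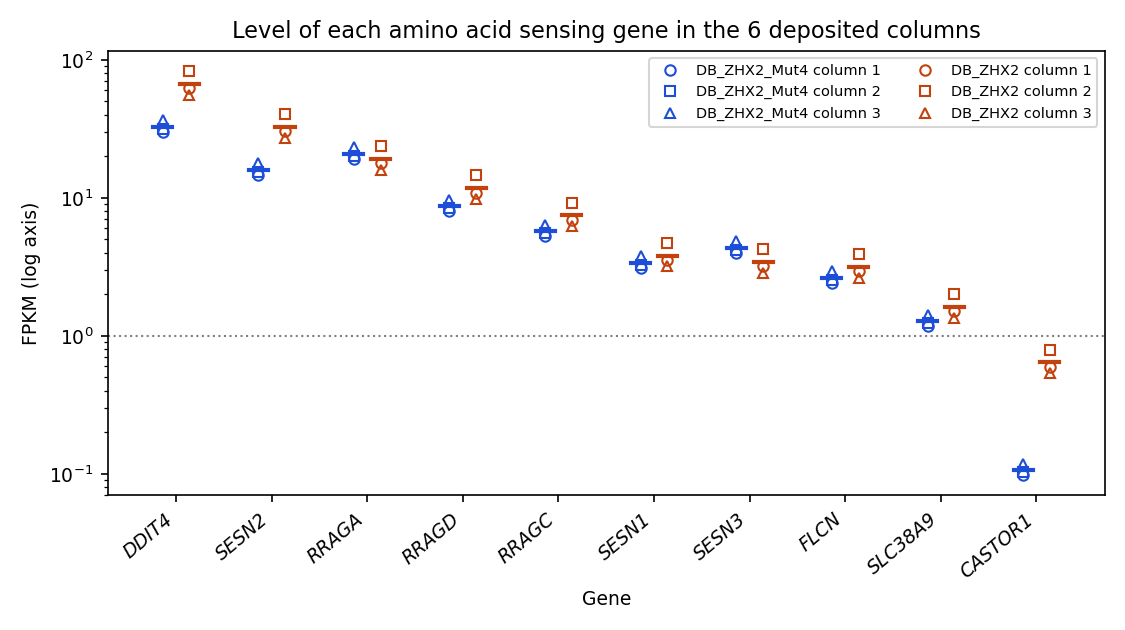
FPKM (log axis) of the 10 genes in the 3 deposited columns of DB_ZHX2_Mut4 (blue) and DB_ZHX2 (red-brown), with the group mean as a bar and the filter of 1 FPKM dotted. SESN2 and DDIT4 have the widest gaps among the genes above the dotted line, and CASTOR1 lies below it in all columns.

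SESN2, a leucine-binding inhibitor of GATOR2 that also acts in the response to oxidative stress, lies on chromosome 1 from 28259527 to 28282491 (GRCh38, GENCODE v29, plus strand). It was at 14.7, 15.5 and 17.8 FPKM in the Mut4 columns and at 30.4, 40.6 and 27.3 FPKM in the ZHX2 columns. All ZHX2 values lay above all Mut4 values, as in 3 of the 9 sensing genes compared (with DDIT4 and RRAGD); columns of the groups did not overlap in 19.9% of all genes compared. The mean levels were 16.0 and 32.8 FPKM, a log2 ratio of −0.99 or 1.99-fold higher in ZHX2 cells. Of all genes compared, 94 (0.743%) had a lower ratio. The row has a single transcript and no overlapping gene in GENCODE v29, so no other record shares its reads by position.

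DDIT4, which lowers mTORC1 activity through the TSC complex and is induced by hypoxia, glucocorticoids or ER stress, lies on chromosome 10 from 72273920 to 72276036 (plus strand). Its values were 30.2, 31.8 and 36.5 FPKM in Mut4 cells and 62.3, 83.1 and 55.9 FPKM in ZHX2 cells, again without overlap. The group means of 32.8 and 67.1 FPKM gave a log2 ratio of −1.01, or 2.01-fold higher in ZHX2 cells, with 86 genes (0.680%) lower. It was the most abundant of the 10 in both profiles. GENCODE v29 places DDIT4-AS1 on the opposite strand across 847 exonic bases, and the sources used here do not say whether counting used strand. By the authors' deposited table, 2 of the 10 genes had a q under 0.05 with at least a 2-fold ratio. In the authors' deposited table the q-values of SESN2 and DDIT4 were 3.34e-05 and 3.33e-05 and the ratios 2.07 and 2.06, ZHX2 over Mut4. Of 29568 rows of the authors' deposited table, 0.747% had a q under 0.05 and were 2-fold or more higher in ZHX2 cells, and 1.26% were that far apart in either direction. The sources used here do not say on which values those tests were made.

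The 2 genes kept their proportion to each other. DDIT4 was at 2.05 times the FPKM of SESN2 in Mut4 cells and at 2.05 times in ZHX2 cells. A ratio within 1 profile is the same in all 3 columns of a group and so does not depend on the constants.

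The other sestrin genes differed little, and in opposite directions. SESN1, a FOXO-regulated sestrin (chromosome 6, 108986437 to 109094819, minus strand), was at 3.12, 3.28 and 3.76 FPKM in Mut4 columns and 3.55, 4.73 and 3.18 FPKM in ZHX2 columns. These ranges overlapped, and the log2 ratio of −0.14 was 0.0076 without ZHX2 column 2. SESN3, which FOXO factors induce (chromosome 11, 95165513 to 95232541, minus strand), had 4.01, 4.22 and 4.84 FPKM in Mut4 and 3.21, 4.27 and 2.88 FPKM in ZHX2 cells. Its log2 ratio was 0.27, or 1.20-fold higher in Mut4 cells, and its columns overlapped too. SESN1 and SESN3 each share exonic bases with an antisense record (363 and 93 bases). The one at SESN3 was at 0.282 FPKM in Mut4 against 0.234 FPKM in ZHX2 cells.

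Summed over the family, sestrin FPKM was 23.8 in Mut4 and 40.05 in ZHX2 cells. SESN2 made up 67.4% of the sum in Mut4 and 81.8% in ZHX2 cells, SESN1 14.3% and 9.54%, and SESN3 18.4% and 8.62%. SESN3 stood above SESN1 in Mut4 cells (1.29 times) and below it in ZHX2 cells (0.904 times). Unequal ratios within a profile do not show that any one sestrin was unchanged.

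**Figure D2:**
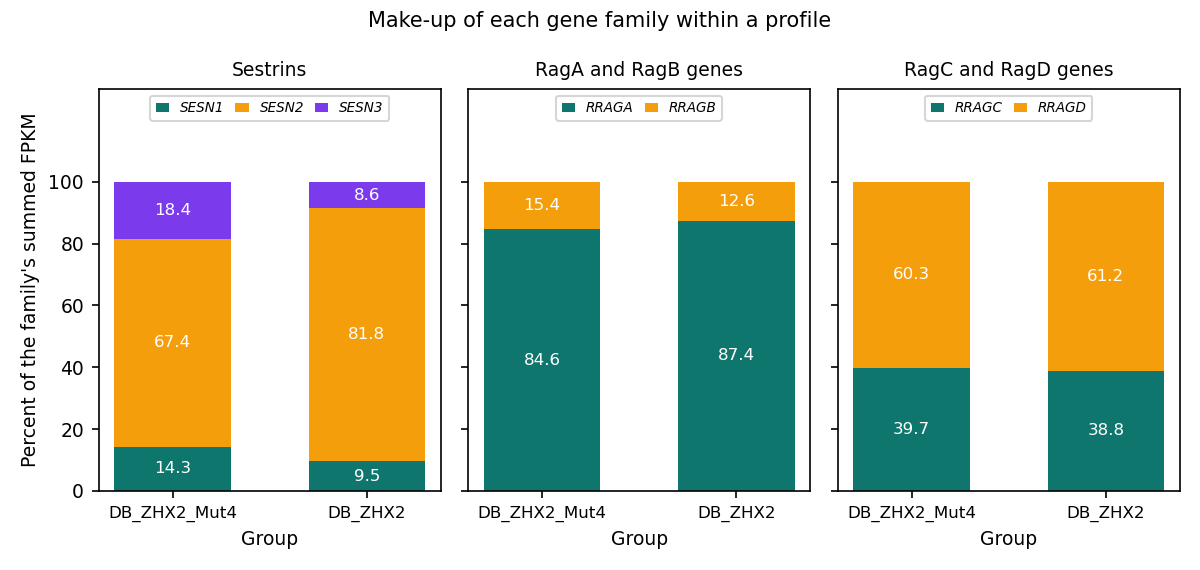
Share of the summed FPKM (percent, from 0) held by each gene of the sestrins, of RRAGA with RRAGB, and of RRAGC with RRAGD, in each group's profile. SESN2 takes 67.4% of sestrin FPKM in DB_ZHX2_Mut4 and 81.8% in DB_ZHX2, while RRAGD takes 60.3% and 61.2% of the pair with RRAGC.

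CASTOR1, the cytosolic arginine sensor, was barely detected. It was listed at 0.0980, 0.103 and 0.118 FPKM in Mut4 columns and at 0.596, 0.794 and 0.535 FPKM in ZHX2 columns, below the filter throughout. The plain ratio of the means was 6.02, ZHX2 over Mut4, while the log2 ratio on the FPKM + 1 scale was −0.57. The authors' deposited table gave it a p-value of 1. The gene lies on chromosome 22 from 30285117 to 30289627 (minus strand), and a longer record on the same strand, AC004997.1 in GENCODE v29 (ENSG00000248751), shares 1262 exonic bases with it. That record was at 0.890 FPKM in Mut4 cells and listed at 0 in ZHX2 cells, the opposite direction to CASTOR1. Reads in the shared exons can be given to either record, so the ratio of CASTOR1 is uncertain, and no direction is drawn. Its paralogue CASTOR2 stood at 1.35 FPKM in Mut4 against 1.17 FPKM in ZHX2 cells (log2 ratio 0.11).

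SLC38A9, the lysosomal transporter that senses arginine, had the lowest level of the genes compared. Its values were 1.18, 1.24 and 1.43 FPKM in Mut4 and 1.51, 2.01 and 1.35 FPKM in ZHX2 columns, which overlapped. The log2 ratio was −0.20, and −0.32 with a pseudocount of 0.1. The gene spans 55625845 to 55773194 on chromosome 5 (minus strand), where the germline gene DDX4 overlaps it on the other strand without shared exonic bases.

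Among the Rag GTPases, the RagC and RagD genes were somewhat higher in ZHX2 cells and the RagA gene was close to equal. RRAGC (chromosome 1, 38838198 to 38859823, minus strand) was at 5.29, 5.56 and 6.38 FPKM in Mut4 and 6.92, 9.23 and 6.21 FPKM in ZHX2 columns. The columns overlapped, since ZHX2 column 3 lay below Mut4 column 3, and the log2 ratio was −0.33 (1.25-fold higher in ZHX2 cells). A same-strand record sharing 1183 exonic bases with RRAGC was listed at 0 in both profiles. RRAGD, known as a target of TFEB and the other MiT/TFE factors (chromosome 6, 89364636 to 89412270, minus strand), had 8.01, 8.43 and 9.67 FPKM in Mut4 and 10.9, 14.5 and 9.79 FPKM in ZHX2 columns. Its values did not overlap, by a narrow gap, and the log2 ratio was −0.39 (1.31-fold higher in ZHX2 cells). Neither reached 1.5-fold under any alternative tried.

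RRAGA, the more abundant of the RagA and RagB genes (chromosome 9, 19049395 to 19050983, plus strand), was at 19.2, 20.2 and 23.2 FPKM in Mut4 and 17.8, 23.7 and 16.0 FPKM in ZHX2 columns. The ZHX2 columns spanned all Mut4 values. Its log2 ratio of 0.12 came down to 0.0075 without ZHX2 column 3. RRAGB, its alternative in the heterodimer, was at 3.79 FPKM in Mut4 against 2.76 FPKM in ZHX2 cells (log2 ratio 0.35).

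Set as the 2 sides of the heterodimer, RRAGA and RRAGB summed to 24.7 FPKM in Mut4 against 21.9 FPKM in ZHX2 cells, and RRAGC and RRAGD to 14.4 and 19.2 FPKM. The first sum was thus 1.71 times the second in Mut4 cells and 1.14 times in ZHX2 cells. Within each side the make-up was closer: RRAGA held 84.6% and 87.4% of its pair, and RRAGD was 1.52 and 1.58 times RRAGC. These are levels of mRNA and say nothing of assembled dimers.

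FLCN, folliculin, the GTPase-activating protein for RagC and RagD (chromosome 17, 17212212 to 17237188, minus strand), was at 2.43, 2.56 and 2.94 FPKM in Mut4 and 2.93, 3.91 and 2.63 FPKM in ZHX2 columns. The columns overlapped and the log2 ratio was −0.19. A record on the same strand shares 1161 exonic bases with FLCN, but it stood at 0.0304 and 0.0316 FPKM. Of its partners, FNIP1 was at 2.66 and 3.21 FPKM (log2 ratio −0.20). FNIP2 stood below the filter, at 0.253 FPKM in Mut4 against 0.550 FPKM in ZHX2 cells, and the authors' deposited table gave it a ratio of 2.19, ZHX2 over Mut4, with a q of 0.000242.

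**Figure D3:**
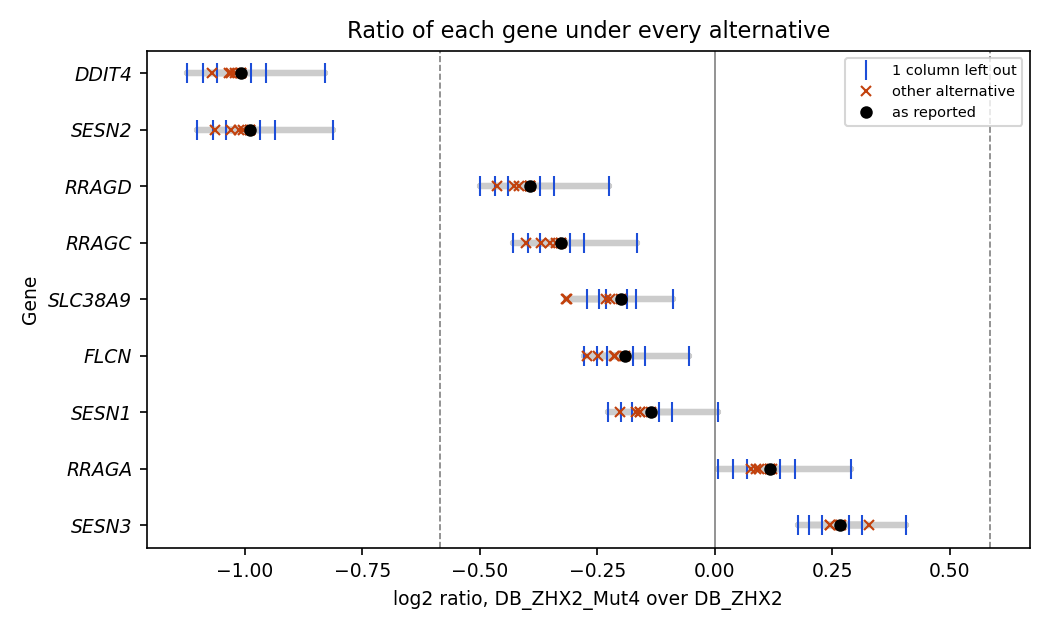
log2 ratio (Mut4 over ZHX2) of the 9 sensing genes over the filter as reported (black), with 1 column left out (blue ticks) and under the other alternatives (red-brown crosses); grey bars span all values and 1.5-fold is dashed. SESN2 (−1.10 to −0.81) and DDIT4 (−1.12 to −0.83) stay left of the dashed line, the other 7 stay inside, and SESN1 alone crosses 0. The blue ticks reflect the constants between columns, not replicates.

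In order of level, the Mut4 profile ran DDIT4, RRAGA, SESN2, RRAGD, RRAGC, SESN3, SESN1, FLCN, SLC38A9 and CASTOR1. The ZHX2 profile had the same order with 2 exchanges. SESN2 passed RRAGA, from 0.767 times its FPKM in Mut4 to 1.71 times in ZHX2 cells, and SESN1 passed SESN3. Among genes compared, DDIT4 lay above 91.6% by level in Mut4 and 96.6% in ZHX2 cells, and SESN2 above 80.4% and 91.7%. SLC38A9 lay above only 6.75% and 13.4%.

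**Figure D4:**
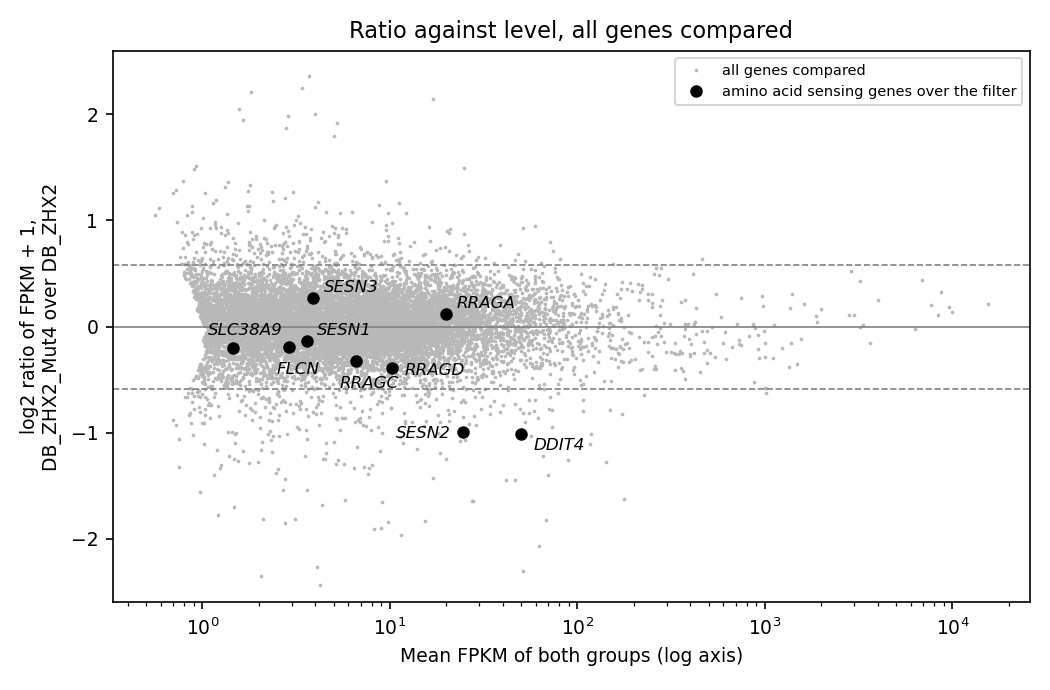
log2 ratio of FPKM + 1 (Mut4 over ZHX2) against the mean FPKM of both groups (log axis), for all 12643 genes compared (grey; 7 lie beyond the axis limits) and the 9 sensing genes over the filter (black), with 1.5-fold dashed. SESN2 and DDIT4 lie at −0.99 and −1.01, and the other 7 lie between the dashed lines.

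In 9 lists of the complexes around the sensors, 40 of 44 genes were compared, and 0 were 1.5-fold apart on the FPKM + 1 scale, where 94.9% of all genes compared were also less than 1.5-fold apart. Their ratios ran from −0.48 to 0.51, with a median of 0.09. Of these 40, 16 had ratios below 0 and 24 above, while 46.2% of all genes compared lay below 0. Without ZHX2 column 2, 23.7% of all genes did so, and of the 40 then 9 lay below 0 and 1 was past 1.5-fold, higher in Mut4 cells.

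The GATOR1 genes NPRL3, DEPDC5 and NPRL2 had log2 ratios of 0.35, 0.11 and −0.02. Genes of GATOR2, the protein complex that the sestrins and CASTOR1 bind, lay between −0.17 (MIOS) and 0.34 (WDR24), with a median of 0.07 over 5. In KICSTOR, which tethers GATOR1 to the lysosome, KPTN and ITFG2 were at 0.42 and 0.34 and KICS2 at −0.15. Ragulator genes had a median of 0.14 over 5, led by LAMTOR2 (0.41) and LAMTOR4 (0.36).

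Other proposed sensors had 6 of 7 ratios below 0 and a median of −0.10, which became 3 of 7 and 0.03 without ZHX2 column 2. For all genes compared, 46.2% below 0 and a median of 0.02 became 23.7% and 0.17. SAR1B, a small GTPase reported to bind leucine, was at 3.62 FPKM in Mut4 against 5.21 FPKM in ZHX2 cells (log2 ratio −0.43). SLC66A1, a lysosomal exporter of cationic amino acids, had −0.32, and BMT2 (SAMTOR, the sensor of S-adenosylmethionine) −0.27. Of the genes for ubiquitin enzymes that act on this pathway, SKP2 had the highest ratio, 4.43 FPKM in Mut4 against 2.82 FPKM in ZHX2 cells (0.51). The authors' deposited table gave SKP2 a ratio of 0.644, ZHX2 over Mut4, with a q of 0.0454.

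On the TSC arm, through which DDIT4 acts, TSC1, TSC2, TBC1D7 and RHEB had log2 ratios of −0.14, 0.10, 0.30 and −0.08. The paralogue DDIT4L was listed at 0 in Mut4 and at 0.0235 FPKM in ZHX2 cells. Of 7 genes of the mTOR complexes that were compared, DEPTOR, an inhibitor of both complexes, was farthest from 0, at 4.17 and 6.19 FPKM (log2 ratio −0.48). The kinase gene MTOR itself had 0.18.

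Downstream of the complex, 1 of 6 effector genes compared differed by 1.5-fold or more, as did 5.1% of all genes compared. That effector gene was LPIN1, which encodes a phosphatidate phosphatase that mTORC1 phosphorylates, at 11.8 FPKM in Mut4 against 24.5 FPKM in ZHX2 cells. The kinase gene RPS6KB2 was at 0.17, and EIF4EBP2, a repressor of translation initiation, at 0.22.

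The MiT/TFE factors, which FLCN and the Rags hold in the cytoplasm when amino acids are present, were measured as TFEB (−0.05), TFE3 (0.07) and TFEC (0.43). Of 12 of their lysosomal and autophagy targets, 9 had ratios below 0 and 1 passed 1.5-fold, the median being −0.14, against 46.2% of all genes below 0 and 5.1% past 1.5-fold. The median of all genes was 0.02. Without ZHX2 column 2 the counts for the targets were 6 and 0 and their median −0.003. Of all genes, 23.7% then lay below 0, with a median of 0.17. With all columns, the target past 1.5-fold was SQSTM1, the autophagy receptor p62, at 13.3 and 22.0 FPKM (1.61-fold higher in ZHX2 cells). NEU1 and CTSD, lysosomal hydrolases, were at −0.28 and −0.28.

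Of 8 other targets of ATF4, a known inducer of SESN2 and DDIT4, 4 were lower in Mut4 cells past 1.5-fold and 8 had ratios below 0, with a median of −0.54. Among all genes compared, 2.56% were that much lower and 46.2% had ratios below 0, with a median of 0.02. Without ZHX2 column 2, 3 of the 8 targets were past 1.5-fold and 7 below 0, with a median of −0.38. Of all 12643 genes, 202 were then that much lower and 23.7% lay below 0, with a median of 0.17. With all columns, the 4 targets past 1.5-fold were CHAC1, a glutathione-degrading enzyme (2.72-fold higher in ZHX2 cells), TRIB3, a pseudokinase (2.34-fold), CEBPG, a partner of ATF4 (1.73-fold), and PSAT1, of serine synthesis (1.56-fold). These lists were drawn up with the direction of such genes known from this table, so their counts are no independent evidence of it.

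Among 11 genes for regulators of the sestrin and DDIT4 genes, 2 were lower in Mut4 cells past 1.5-fold, DDIT3 (CHOP, 2.72-fold) and CEBPB (1.90-fold). Of the 11, 9 had ratios below 0, or 6 without ZHX2 column 2. Among all genes compared, 2.56% were that much lower and 46.2% had ratios below 0, or 23.7% without ZHX2 column 2. The mRNA of ATF4 itself had a log2 ratio of −0.23, that of its upstream kinase EIF2AK4 (GCN2) 0.03 and that of EIF2AK3 (PERK) −0.32. The forkhead genes FOXO1, FOXO3 and FOXO4 were at −0.09, −0.21 and −0.13. The part of any of these in the levels of SESN2 or DDIT4 was not tested.

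**Figure D5:**
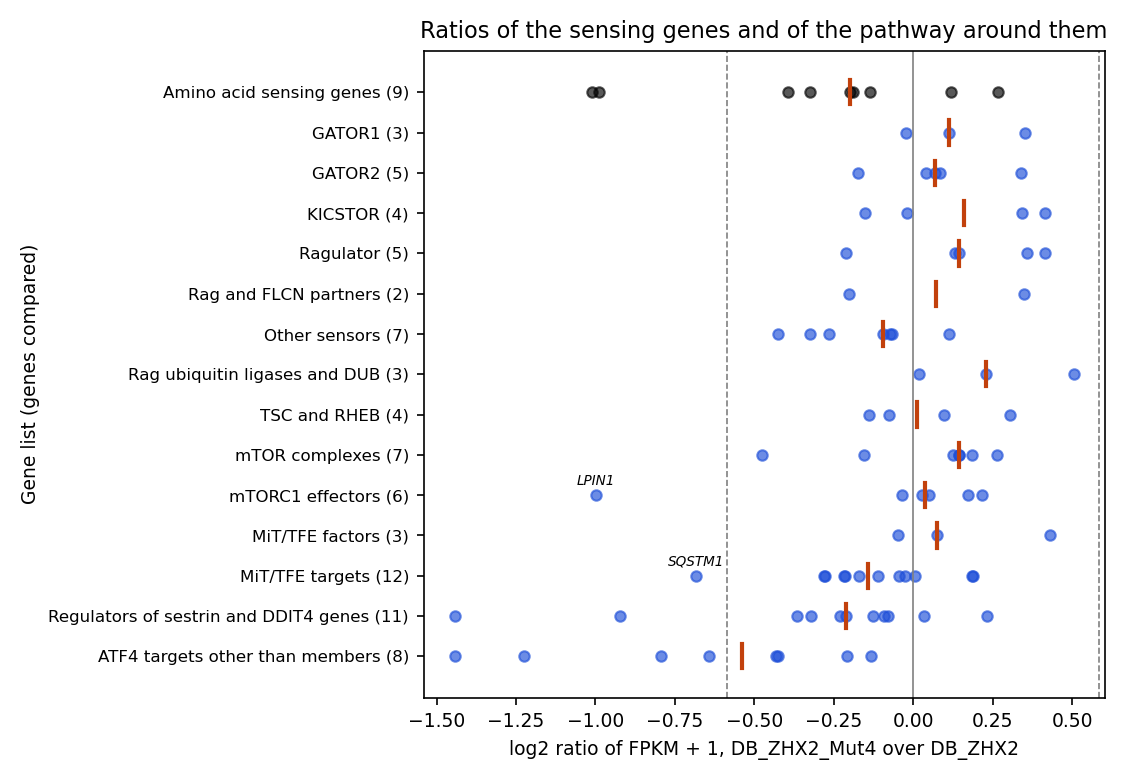
log2 ratio of FPKM + 1 (Mut4 over ZHX2) of each gene compared, by list (sensing genes black, other genes blue), with the list's median as a red-brown bar and 1.5-fold dashed; numbers in brackets are genes compared. The 9 lists from GATOR1 to the mTOR complexes stay within the dashed lines, while 4 of 8 other ATF4 targets lie to their left. Of all genes compared (not drawn), 94.9% were less than 1.5-fold apart and 2.56% were that much lower in Mut4 cells.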

How the data were processed

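RNA-seq was made from poly(A) RNA of DB cells, with a dUTP-labelled second strand, per the labels' protocols. Tools listed, per the submitters' processing notes, are edgeR, StringTie, HISAT2 and fastp, with the build GRCh38; versions and settings are not given in the sources used here. The authors deposited FPKM per gene and column, a linear ratio, its log2 value, and p-values and q-values, per the file headers; the deposited ratio is ZHX2 over Mut4, from column 1 of each group. The table holds no count column, so depth is unknown.

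The columns of a group were checked for constant ratios and counted as 1 sample, so no test was run. Group means were compared as log2(FPKM + 1) over genes with at least 1 FPKM in at least 3 of 6 columns (12646 genes). 3 rows whose deposited values did not match one another were left out, SLC7A11 among them. Symbols were matched by gene ID. Named by rule were all 10 genes and, per list, up to 4 genes over the filter with the largest absolute ratios, or whole lists of up to 5; ATF4, EIF2AK4, the FOXO genes and the KEGG genes fall outside it and were chosen after their values were seen. The genes and lists were chosen with earlier results of these data known. Some members of the lists are not reported by name here. The ratio step was tested on simulated data, with large changes placed only in genes well above the filter. That test checks the calculation and does not bear on smaller differences, low genes or the lack of replicates. Alternatives were another pseudocount, filters, quantile normalization, centring, and leaving out each column; scaling each column to the same total, and the lists with each column left out, were added after seeing the data. Loci are from GENCODE v29. Python 3.11.15, numpy 2.4.6, pandas 2.3.3, scipy 1.17.1 and matplotlib 3.10.9 were used.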

Additional observations from a re-analysis of the deposited data

How the results depend on the processing

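No paired analysis was possible because no test was made, each group holding 1 profile. Under 12 alternatives, 2 genes, SESN2 and DDIT4, remained at least 1.5-fold lower in Mut4 cells, from −1.10 to −0.81 and from −1.12 to −0.83 on the log2 scale, both ends reached by leaving out a ZHX2 column. As the columns of a group are multiples of 1 profile, leaving out or scaling columns only multiplies a group's means by a constant. Centring shifts all log2 ratios alike. That the 2 genes stayed past 1.5-fold is therefore no check against replicates. Of all 12643 genes compared, 645 (5.10%) were 1.5-fold apart as reported, and 1252 (9.90%) with a pseudocount of 0.1. With each column scaled to the same total the count was 1045 (8.27%). A filter of 5 FPKM left 6912 genes to compare, of which 299 (4.33%) were 1.5-fold apart. The cause of the differing shares was not tested. When 1 column was left out, the count of all genes 1.5-fold apart ranged from 648 to 922. Without ZHX2 column 2 the median of the sensing genes was −0.09. SESN1 was the 1 gene whose sign changed. With a pseudocount of 0.1 CASTOR1 was at −1.84, and SESN1, SESN3, SLC38A9 and FLCN did not pass the filter of 5 FPKM.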

Other observations

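The table's own KEGG annotation for mTOR signalling covers a wider pathway, with receptors and Wnt ligands as well, and this list was added after the data were seen. It held 135 genes, of which 108 were compared. At 1.5-fold, 6 of these were lower in Mut4 cells while 1 was higher, and the median log2 ratio was −0.01. Of all 12643 genes compared, 2.56% were that much lower and 2.54% higher, with a median of 0.02. Less than 1.5-fold apart were 93.5% of the 108 and 94.9% of all genes. Without ZHX2 column 2 the KEGG counts were 5 and 3 and the median 0.16. All genes then gave 202 lower and 720 higher, with a median of 0.17. Without ZHX2 column 1, ZHX2 column 3 or Mut4 column 3, 0 of the KEGG genes were higher, while 273, 222 and 237 of all genes were. Besides SESN2 and DDIT4, the lower genes were SLC3A2, the heavy chain of amino acid exchangers (−1.40), LPIN1, the cytokine TNF (−0.76) and the Wnt ligand WNT7B (−0.75). The higher gene was TELO2, of a co-chaperone complex that stabilises mTOR and related kinases, at 13.8 FPKM in Mut4 against 8.68 FPKM in ZHX2 cells (0.61). Without the sensing genes described above, 127 genes were annotated and 101 compared, with 4 lower, 1 higher and a median of 0.0047.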
